A study of Rattus norvegicus with 4 samples.

Results

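Angptl4, Pdk4, Cpt1a, Cd36, Apoc2, Lpl, Fabp4, Car3 and Cidec are 9 genes of fatty acid handling, and their messenger RNA was followed through perfusion of donor rat kidneys. Of 14217 genes with a probe set of their own on the array, these 9 were picked by name with earlier results of the same arrays known. The large differences of Angptl4, Car3 and Fabp4 were part of that choice, so their values are given as a description and with no test. They have 12 probe sets among 20832 with 1 gene symbol, and each gene is read from its brightest probe set by mean of the 4 arrays.

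The study modelled kidney donation after cardiac death in male Wistar rats of 300 to 480 g. All kidneys had 29 min of warm ischaemia in the dead animal, were flushed, and then had 3 h of machine perfusion in the cold with University of Wisconsin fluid, made for organ storage. The heparin group and the PPS group received 10 IU/ml of low molecular weight heparin or of PPS, given only by this abbreviation in the labels, in the cold perfusate and again during 30 min at warm temperature with an oxygenated Krebs-Henseleit buffer (modified). The warm group had the same cold and warm perfusion with no supplement, and the cold group ended after the cold perfusion. Each group is 1 Affymetrix array with RNA pooled in equal amounts from 3 left kidneys, those with the best RNA of their group, so there is no spread between replicates, no p-value was computed, and differences between the kidneys of a pool are not seen.

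Fatty acids reach cells in part through lipoprotein lipase (Lpl), an enzyme held on heparan sulfate at the vessel wall that frees them from the triglyceride of lipoproteins. Apoc2 is the cofactor that activates this lipase, and Angptl4 is a secreted protein that inactivates it. Heparin is known to release lipoprotein lipase from the vessel wall. Inside the cell, fatty acids act on PPAR nuclear receptors. In liver and muscle, PPAR-alpha raises a set of genes for fatty acid handling that includes Angptl4, Pdk4, Cpt1a and Cd36. Fabp4, Car3, Cidec and Lpl are best known from fat cells. The proximal tubule of the kidney draws much of its energy from fatty acid oxidation.

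Angptl4, Apoc2 and Pdk4 were the genes whose levels moved together through the perfusions, so the stretch upstream of each is shown. The sequences are the 250 bases before the annotated start, from RefSeq on the rat assembly GRCr8, written 5′ to 3′, with every match to the TATA box letters TATAAA on either strand in capitals. For Angptl4 the start used lies inside the span of the gene record, so it is not its outermost start. The same holds for Cd36, Cpt1a and Cidec, whose promoters were searched as well.
Angptl4, chr7:15258682-15258931, minus strand: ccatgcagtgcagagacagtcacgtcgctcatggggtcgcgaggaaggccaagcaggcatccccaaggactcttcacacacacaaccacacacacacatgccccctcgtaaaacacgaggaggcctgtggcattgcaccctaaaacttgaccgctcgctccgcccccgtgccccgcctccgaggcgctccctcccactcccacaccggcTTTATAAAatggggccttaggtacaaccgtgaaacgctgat
Apoc2, chr1:88462366-88462615, minus strand: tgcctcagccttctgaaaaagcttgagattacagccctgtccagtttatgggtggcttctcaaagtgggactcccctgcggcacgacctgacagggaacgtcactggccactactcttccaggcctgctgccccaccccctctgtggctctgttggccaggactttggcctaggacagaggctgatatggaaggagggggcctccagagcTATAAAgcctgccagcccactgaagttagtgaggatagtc
Pdk4, chr4:34568330-34568579, minus strand: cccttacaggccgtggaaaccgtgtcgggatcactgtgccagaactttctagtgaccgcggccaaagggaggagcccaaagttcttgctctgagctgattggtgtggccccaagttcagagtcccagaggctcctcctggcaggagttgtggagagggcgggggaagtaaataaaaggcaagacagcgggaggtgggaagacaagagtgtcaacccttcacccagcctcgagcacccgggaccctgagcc
TATAAA matched in Angptl4 at 39 bases before the start on the plus strand of the gene and at 41 bases on the opposite strand, 2 matches that overlap. In Apoc2 it matched once, at 40 bases before the start. Pdk4 had no match, and neither did Cpt1a nor Cidec, while Cd36 had 1 match at 175 bases. Among 33469 promoters of the same length, 12.9% held these letters.

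Letters of the PPAR response element were searched on both strands too. The direct repeat AGGTCANAGGTCA, found in 0.0508% of all promoters, and its repeat unit AGGTCA, found in 14.1%, matched in none of the 6 promoters available for the 9 genes. The hypoxia element core ACGTG, found in 16.6% of promoters, matched once in Angptl4 and once in Cd36, and the GC box GGGCGG, found in 30.5%, matched once in Angptl4 and once in Pdk4. The unit is part of the direct repeat, and the other letters share no overlap with them. Absence of a match says only that the letters are not in these 250 bases.

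Expression values are the authors' GCRMA values on the log2 scale, so a step of 1 is 2-fold. Values under the median of all values, 4.51, are dominated by the background model and were raised to that floor, and a fold that involves the floor is given as a bound. Differences of 1 or more in size were called higher or lower, and "warm versus cold" stands for the warm value minus the cold value, likewise for the other pairs. The background is the 9393 genes that at least 1 array measured above the floor, all 9 members among them. Median values of the arrays lay between 4.50 and 4.54. The 24 poly-A control probe sets, transcripts of known amount put in with the sample, were lowest on the cold array: their median log2 difference was 1.28 in heparin versus cold, 1.10 in PPS versus cold and 1.25 in warm versus cold. The 3′ to 5′ difference of beta-actin, a sign of RNA quality, was 3.39 on the heparin, 3.19 on the PPS, 3.22 on the warm and 2.79 on the cold array. For Gapdh it was smaller, at 0.72 on the heparin, 0.81 on the PPS, 0.84 on the warm and 0.60 on the cold array. What part these differences have in comparisons with the cold array cannot be told apart from warm perfusion. The proximal tubule markers, 14 of 15 above the floor, include those of the main kidney cell type.

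**Figure D1:**
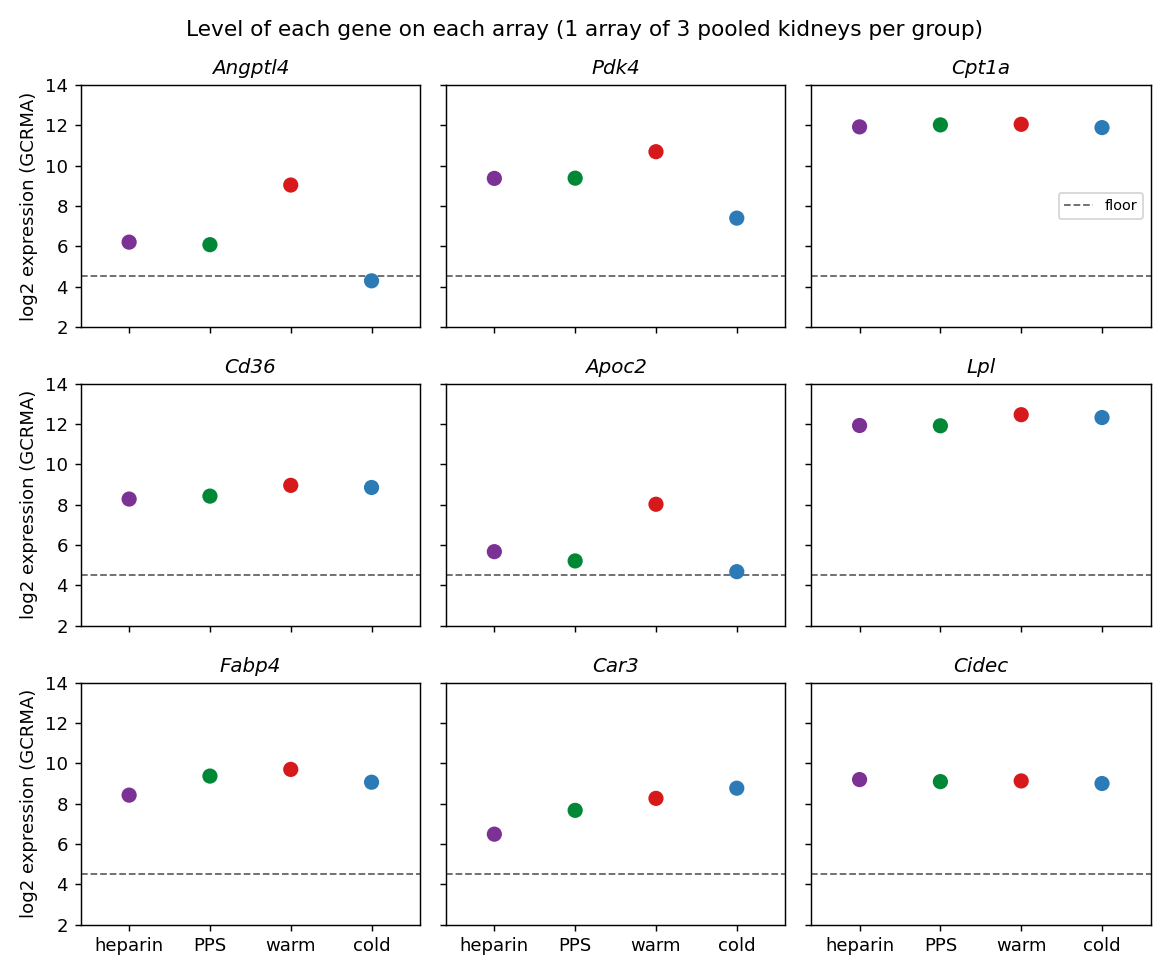
Log2 expression (GCRMA) of each of the 9 genes on the heparin, PPS, warm and cold arrays, 1 point per array of 3 pooled kidneys, with the floor of 4.51 as a dashed line. Angptl4, Pdk4 and Apoc2 peak on the warm array, Fabp4 and Car3 are lowest on the heparin array, and Cpt1a, Lpl and Cidec stay within a log2 range of 0.56.

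Warm versus cold compares kidneys with and without 30 min of warm oxygenated perfusion. Warmth, oxygen, the change of fluid and the added time cannot be told apart in it. Angptl4, Apoc2 and Pdk4 were far higher on the warm array than on the cold array, and the other 6 members differed by less than 2-fold. Thus 3 of 9 members were higher and 0 lower, where 2.48% of all 9393 genes were higher and 1.16% lower by that size. Because this contrast took part in the choice of the members, nothing further is read from the share.

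Angptl4, the lipase inhibitor, had a log2 value of 9.04 on the warm array and 4.28 on the cold array. The cold value lies under the floor, so the warm level was higher by at least 23.0-fold, and the gene ranked 17th from the top of 9393 genes. Apoc2, the lipase activator, had 8.03 on the warm and 4.68 on the cold array, a log2 difference of 3.34 or 10.2-fold, at rank 36. Its cold value stands just above the floor, so the size of that fold is uncertain, and with a floor at the 60th percentile the log2 difference was 1.30, with 2.30 for Angptl4. Pdk4, the kinase that switches off pyruvate dehydrogenase and so spares glucose, had 10.69 on the warm and 7.39 on the cold array, 9.82-fold, at rank 37. The log2 difference of Pdk4 was 3.30, and 1.74 when averaged with its second probe set, which lies under the floor on every array. An inhibitor of the lipase and its activator were thus higher side by side, while the lipase itself was level.

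Lpl had a log2 value of 12.47 on the warm and 12.33 on the cold array, a difference of 0.14. Cpt1a, the enzyme that admits long-chain fatty acids to mitochondria, had 12.05 on the warm and 11.88 on the cold array. Cd36, a fatty acid transporter of the plasma membrane, had 8.96 and Cidec, a lipid droplet protein, 9.13 on the warm array, against 8.86 and 9.002 on the cold array. These 4 differences, from 0.11 to 0.16, lie in the middle of all genes, and all of them turned negative with either control scaling, in which the median of all genes shifts as well. Fabp4, a fatty acid carrier of fat cells, macrophages and capillary endothelium, differed by 0.64, with 9.70 on the warm and 9.07 on the cold array (-0.49 after scaling to the poly-A controls). Car3, a carbonic anhydrase of fat and muscle, was at 8.26 on the warm and 8.77 on the cold array, a difference of -0.50.

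Scaling each array to the poly-A controls moved the median of all genes in warm versus cold to -1.13. Under that scaling Angptl4, Apoc2 and Pdk4 still passed the size limit, with 3.62, 2.22 and 2.17. The other 6 members then lay between -1.63 for Car3 and -0.49 for Fabp4, around the median of all genes. Under the hybridisation controls, which moved that median to -0.39, the values of Angptl4, Apoc2 and Pdk4 were 4.36, 2.95 and 2.90.

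**Figure D2:**
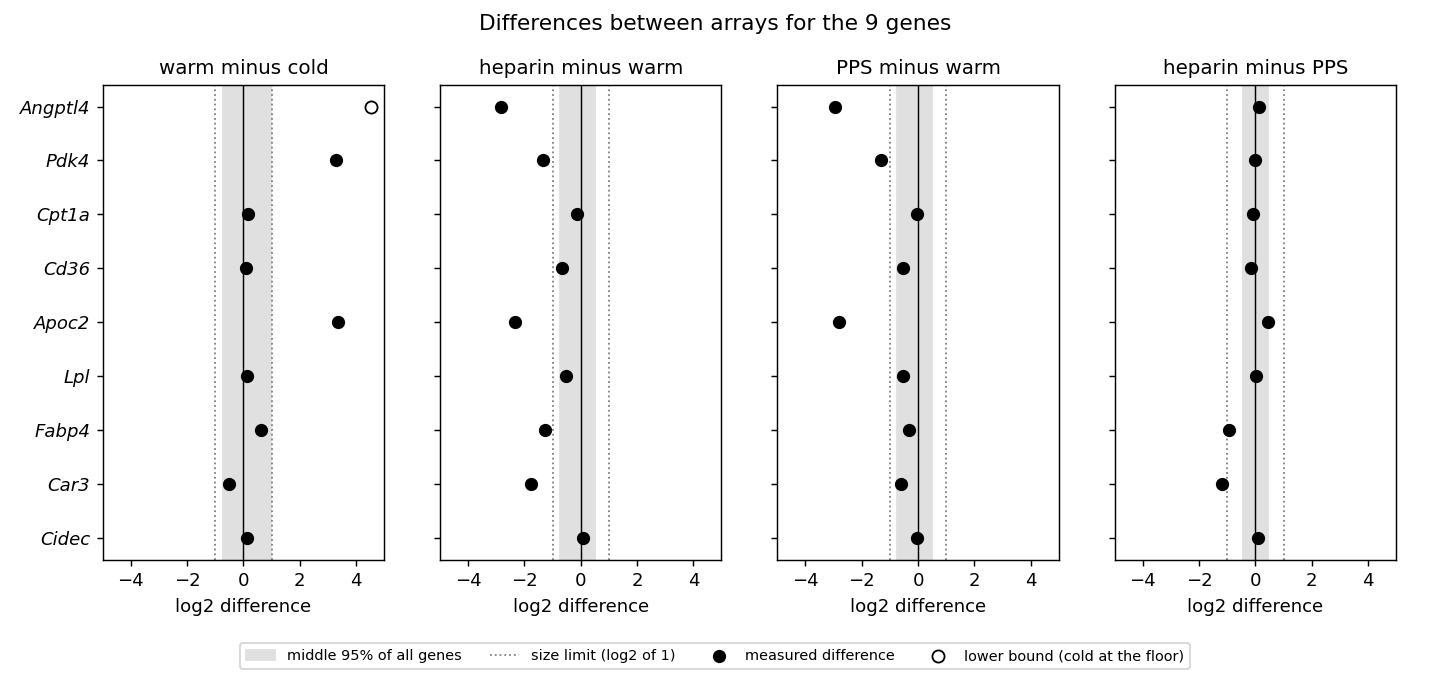
Log2 differences of the 9 genes in 4 comparisons, with the middle 95% of all genes shaded, the size limit of 1 dotted, and an open circle where the cold value was under the floor. Angptl4, Apoc2 and Pdk4 lie outside the shaded band in warm versus cold and, on the other side, in heparin versus warm and PPS versus warm, whereas Fabp4 and Car3 stand out with heparin.

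Heparin was tested in these kidneys for anti-inflammatory properties. On the heparin array 5 of the 9 members were lower than on the warm array by 2-fold or more and 0 were higher, where 1.48% of all genes were lower and 0.383% higher. They were Angptl4, Apoc2 and Pdk4, which had been higher on the warm than on the cold array, and the fat cell genes Car3 and Fabp4. The large differences of Angptl4, Car3 and Fabp4 took part in the choice of the members. Nothing further is therefore read from this share of members, or from the shares in the comparisons below. Angptl4 had 6.20 on the heparin and 9.04 on the warm array, a log2 difference of -2.83, and Apoc2 5.68 on the heparin and 8.03 on the warm array, a difference of -2.35. Pdk4 had 9.36 on the heparin and 10.69 on the warm array, a difference of -1.32. From the lowest end of all 9393 genes, Angptl4 ranked 10th, Apoc2 15th and Pdk4 76th.

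Car3 stood at 6.49 on the heparin and 8.26 on the warm array, a log2 difference of -1.78, at rank 29 from the lowest. Fabp4 stood at 8.42 on the heparin and 9.70 on the warm array, 2.42-fold lower, at rank 85. Scaled to the hybridisation controls, the difference of Fabp4 was -0.995, just short of the size limit. Car3 has a second probe set, at the lowest values of the array throughout, and Pdk4 a second one that stays under the floor. Averaging these in, which shrinks any difference by construction, gave -0.68 for Car3 and -0.70 for Pdk4.

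Among the other members, Cd36 had 8.28 on the heparin and 8.96 on the warm array, a difference of -0.68, and Lpl 11.93 on the heparin and 12.47 on the warm array, a difference of -0.54. Cpt1a had 11.92 on the heparin and 12.05 on the warm array, and Cidec 9.20 on the heparin and 9.13 on the warm array, both within 0.13 of 0. The 2 probe sets of Cpt1a did not move alike: the dimmer one had 8.45 on the heparin, 9.11 on the PPS, 9.23 on the warm and 9.27 on the cold array, a heparin versus warm difference of -0.78. The fat cell genes did not act as a group with heparin, since Cidec was level while Car3 and Fabp4 were lower.

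PPS, the other supplement, was set against the warm array in the same way. Angptl4, Apoc2 and Pdk4 were lower, 3 of 9 members, and 0 members were higher, where 1.71% of all genes were lower and 0.511% higher by 2-fold or more. Angptl4 had 6.08 on the PPS and 9.04 on the warm array, a log2 difference of -2.96, 9th from the lowest of all genes. Apoc2 had 5.22 on the PPS and 8.03 on the warm array, a difference of -2.81, and Pdk4 9.38 on the PPS and 10.69 on the warm array, a difference of -1.31. Averaging in its second probe set left Pdk4 at -0.69. The 2 supplement comparisons share the warm array, so a high warm value lowers both.

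The 4 fat cell genes differed less with PPS. Car3 was at 7.67 on the PPS and 8.26 on the warm array (-0.59), and Fabp4 at 9.37 on the PPS and 9.70 on the warm array (-0.33). Lpl was at 11.92 on the PPS and 12.47 on the warm array (-0.55), and Cidec at 9.10 on the PPS and 9.13 on the warm array (-0.03). Cd36 had 8.43 on the PPS array, a difference of -0.53 from the warm array, and Cpt1a 12.02, a difference of -0.03. Lpl and Cd36 thus had like values with both supplements, -0.54 and -0.68 with heparin and -0.55 and -0.53 with PPS, none past the size limit.

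Heparin set directly against PPS compares the supplements without the warm array. Car3 was 1 of 28 genes, 0.298% of all, that were lower on the heparin array by 2-fold or more, with a log2 difference of -1.18 at rank 16 from the lowest. Scaled to the hybridisation controls, which shifted the median of all genes to 0.47, its difference was -0.71, and averaging its 2 probe sets left -0.38. None of the 9 members was higher, where 0.192% of all genes were. Fabp4, at -0.95, ranked 33rd from the lowest and was past the limit only after scaling to the poly-A controls (-1.15). Pdk4 differed by -0.01, Lpl by 0.02, Angptl4 by 0.13 and Apoc2 by 0.46. With 1 array each, a like value does not show that heparin and PPS act alike.

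Levels with the supplements were also set against the cold array. Angptl4 was at least 3.22-fold higher on the heparin array and at least 2.95-fold higher on the PPS array than on the cold array, and Pdk4 was 3.92-fold higher with heparin and 3.95-fold higher with PPS. Those were 2 of 9 members in each comparison, where 1.17% of all genes were higher in heparin versus cold and 1.03% in PPS versus cold. Apoc2 differed by 0.99 in heparin versus cold and by 0.53 in PPS versus cold, and neither passed the limit. Scaled to the poly-A controls, both turned negative, at -0.27 with heparin and -0.52 with PPS. Scaled to the hybridisation controls, the PPS difference of Apoc2 was -0.04, and with a floor at the 60th percentile both were 0. Scaled to the poly-A controls, Angptl4 was at 0.66 with heparin and 0.74 with PPS and Pdk4 at 0.71 with heparin and 0.93 with PPS, all under the limit. Raised to a floor at the 60th percentile, Angptl4 had no measurable difference in either.

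Car3 was the 1 member lower than on the cold array, by 2.28 on the log2 scale on the heparin array and by 1.10 on the PPS array, where 0.916% and 0.788% of all genes were lower. Its order from high to low was cold, warm, PPS and heparin, and no other member was highest on the cold array. Fabp4 ran warm, PPS, cold, heparin from high to low, with -0.64 in heparin versus cold and 0.30 in PPS versus cold. Lpl and Cd36 were highest on the warm array, then the cold array, and lay 0.39 to 0.57 lower than cold with either supplement. Over the 4 arrays the range of a member was smallest for Cpt1a (0.16) and Cidec (0.19) and largest for Angptl4 (4.75 as measured). For Cpt1a this holds for the brighter probe set only, as the dimmer one ran from 8.45 on the heparin to 9.27 on the cold array.

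The 4 PPAR-alpha type members and the 4 fat cell members were then set side by side, with Apoc2 in neither. A median of 4 genes is the midpoint of the middle pair. In warm versus cold the PPAR-alpha type members had a median of 1.73 and the fat cell members 0.13. The first is the midpoint of Pdk4 (3.30) and Cpt1a (0.16), as Angptl4 and Pdk4 were higher while Cpt1a and Cd36 were level. In heparin versus warm the medians were -1.002 and -0.91, for the PPAR-alpha type and the fat cell members, and in PPS versus warm -0.92 for the PPAR-alpha type and -0.44 for the fat cell members. In heparin versus PPS they were -0.05 for the PPAR-alpha type and -0.47 for the fat cell members. The second is the midpoint of Fabp4 (-0.95) and Lpl (0.02), with Car3 below them and Cidec above. Neither group of members had 1 common pattern.

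Whether other PPAR-alpha type targets behaved like Angptl4 and Pdk4 was read from a list of 38 genes, of which 30 others had a probe set and 26 were above the floor. In warm versus cold 0 of these 26 passed the size limit in either direction, with a median of 0.0030, beside -0.0032 for all genes. The largest values were 0.69 for Cpt1b, the muscle form of the carnitine enzyme, and 0.64 for Acot3, an acyl-CoA thioesterase. Of the mitochondrial enzymes on the list, Acadm had 13.17 on the warm and 13.20 on the cold array, and Hadha 12.30 on the warm and 12.40 on the cold array. Scaled to the poly-A controls, 0 of the list were higher and 20 lower in warm versus cold, with a list median of -1.13 beside -1.13 for all genes, of which 6636 of 9660 were lower.

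Heparin versus warm had a median of -0.18 over the 26 genes, with 21 of them below 0, and 1 past the limit. That gene was Ucp2, a mitochondrial carrier, at 7.07 on the heparin and 8.07 on the warm array. In heparin versus PPS it was also the 1 gene past the limit, at -1.02. Ucp2 lost the first call with quantile normalization, and both calls when scaled to the hybridisation controls, where the list median was 0.10 in heparin versus warm and 0.44 in heparin versus PPS. In PPS versus warm the median was -0.08, and 0 passed the limit. Plin2, a lipid droplet coat protein that PPAR ligands raise, had 9.66 on the heparin, 9.75 on the PPS, 9.88 on the warm and 10.05 on the cold array.

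The receptors gave little to read. Ppara and Pparg were under the floor on all 4 arrays, while Ppard had 7.22 on the heparin, 7.14 on the PPS, 7.18 on the warm and 7.28 on the cold array. Of 9 receptor and partner genes above the floor, 0 passed the limit in warm versus cold, heparin versus warm, PPS versus warm or heparin versus PPS. Ppargc1b, a coactivator of oxidative metabolism, was higher than on the cold array by 1.02 with heparin and 1.01 with PPS, and by 0.67 on the warm array.

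**Figure D3:**
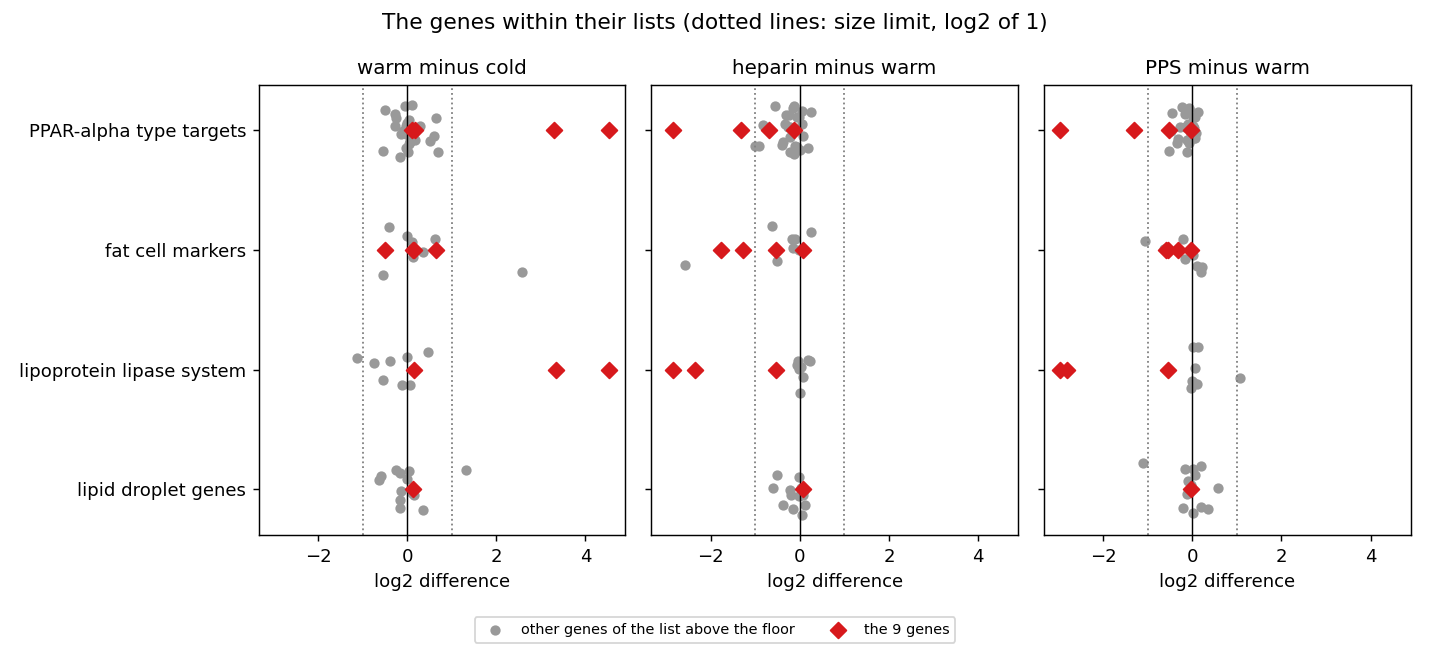
Log2 differences in warm versus cold, heparin versus warm and PPS versus warm for the members (red diamonds) and for the other genes above the floor (grey points, spread vertically for legibility) of 4 lists. In warm versus cold, Angptl4, Pdk4 and Apoc2 lie away from the grey points of their own lists. With heparin, Pdk4 (-1.32) lies near Ucp2 (-1.004), and the warm versus cold value of Angptl4 is a lower bound.

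Fat cells themselves could not be seen through their defining genes. Of 16 other fat cell markers with a probe set, 8 were under the floor on every array, among them Adipoq, Lep, Plin1, Cfd and Pparg, which mark mature fat cells. The summed linear level of the 16, given as log2, was 13.72 on the heparin, 13.82 on the PPS, 13.82 on the warm and 13.98 on the cold array. That sum rests mostly on Acsl1, Gpd1 and Aqp7, at 12.23, 12.08 and 11.30 on the warm array. It therefore says little about the markers under the floor. The 8 above the floor had medians of 0.12 in warm versus cold, -0.16 in heparin versus warm and -0.08 in PPS versus warm, and 1 gene passed the limit in each. That gene was Scd, a fatty acid desaturase, with 2.97 on the heparin, 6.02 on the PPS, 7.08 on the warm and 2.97 on the cold array. Scd was at least 5.94-fold higher on the warm than on the cold array, and lower by at least 5.94-fold on the heparin than on the warm array.

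Fabp4, Cd36, Lpl and Car3 have other known sources as well. Of 13 macrophage and leukocyte markers 10 were above the floor, with a summed log2 level of 13.32 on the heparin, 13.42 on the PPS, 13.61 on the warm and 13.62 on the cold array. Their medians were 0.12 in warm versus cold, -0.27 in heparin versus warm and -0.06 in PPS versus warm. The summed level rests mostly on Lyz2, at 13.00 on the heparin, 13.07 on the PPS, 13.28 on the warm and 13.31 on the cold array. Of 12 capillary endothelial markers 10 were above the floor, with a summed log2 level of 13.59 on the heparin, 13.51 on the PPS, 13.85 on the warm and 13.58 on the cold array. Their medians were 0.34 in warm versus cold, -0.27 in heparin versus warm and -0.22 in PPS versus warm. Among 10 skeletal muscle markers 9 were under the floor, including Ckm and Acta1, and all 6 adrenal cortex markers were. Myh1, the 1 muscle marker above it, had 13.80 on the heparin, 13.62 on the PPS, 13.71 on the warm and 13.64 on the cold array. The list for smooth muscle, pericytes and fibroblasts had a median of -1.29 in warm versus cold, 0.56 in heparin versus warm and 0.79 in PPS versus warm, with 7 of 9 genes lower in the first. Podocyte markers, all 6 above the floor, had medians of 0.86, -0.41 and -0.15 in the same comparisons, with 2 higher in the first. Thick limb, distal and collecting duct markers, 11 above the floor, had a median of 0.50 in warm versus cold with 11 above 0, -0.19 in heparin versus warm with 10 below 0, and -0.37 in PPS versus warm with 11 below 0. The proximal tubule list had -0.21 in warm versus cold with 12 of 14 below 0, 0.0013 in heparin versus warm and 0.09 in PPS versus warm. The part of these cell types in the members' values was not tested, and in whole kidney fewer cells of a type cannot be told apart from less RNA per cell.

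Genes of the lipoprotein lipase system other than Angptl4, Apoc2 and Lpl did not move with Angptl4 and Apoc2. Of 14 other genes, 8 were above the floor, with medians of -0.25 in warm versus cold, 0.01 in heparin versus warm and 0.04 in PPS versus warm. Gpihbp1, which anchors the lipase in capillaries, was under the floor on all arrays. Lrp1, a lipoprotein receptor, was the 1 gene past the limit, at -1.13 in warm versus cold and 1.08 in PPS versus warm. Apoc2 lies in a cluster with Apoc4, Apoc1 and Apoe in the RefSeq annotation of GRCr8. Apoc4 and Apoc1 were at the lowest value on all arrays, and Apoe had 12.55 on the heparin, 12.47 on the PPS, 12.49 on the warm and 13.05 on the cold array. The 5 nearest neighbours of Angptl4 with a probe set stayed between -0.40 and 0.13 in warm versus cold. Among other angiopoietin-like genes, Angptl2 differed by -0.68 in warm versus cold, and Angptl6 and Angptl8 were under the floor.

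Relatives of the other members set Pdk4, Fabp4 and Car3 in context. Of 11 other genes of the pyruvate dehydrogenase switch, 0 passed the limit in warm versus cold: Pdk1, a hypoxia-responsive kinase, had 0.68, Pdk2 -0.20 and Pdk3 -0.19. In PPS versus warm the phosphatase Pdp1 was the 1 gene past it, at -1.18 with the PPS value of 4.47 under the floor. Fabp5, the epidermal fatty acid-binding protein, stood at 9.21 on the heparin and 10.21 on the warm array, a difference of -0.998 that just missed the limit, and at 10.11 on the PPS and 10.08 on the cold array. Fabp3, the heart form, differed by -0.22 in heparin versus warm. Of 8 other carbonic anhydrases above the floor, 0 passed the limit in these 3 comparisons, and Car2, the abundant kidney form, differed by -0.04 in heparin versus warm.

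Lipid droplet, fatty acid synthesis and uptake genes held few differences. Hilpda, a lipid droplet gene that blocks lipolysis and responds to hypoxia, had 5.24 on the heparin, 4.75 on the PPS, 5.84 on the warm and 4.35 on the cold array, and was the 1 of 13 droplet genes past the limit in warm versus cold (a bound of 1.33) and in PPS versus warm (-1.10). Pnpla2, the main triglyceride lipase, differed by -0.51 in heparin versus warm. Of 13 fatty acid synthesis genes above the floor Scd alone passed the limit in warm versus cold, heparin versus warm and PPS versus warm. Of 12 uptake and activation genes 0 passed it in these.

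Angptl4 and Pdk4 are also known to respond to hypoxia or to glucocorticoids, so both kinds of gene were listed. Of 20 hypoxia-response genes above the floor, 4 were higher in warm versus cold, Adm (2.73), Pfkfb3 (2.20), Ddit4 (1.70) and Egln3 (1.24), with a median of 0.08. Adm and Pfkfb3 were lower with heparin (-1.07 and -1.45) and with PPS (-1.44 and -1.48) than on the warm array. Of 9 glucocorticoid-induced genes 2 were higher in warm versus cold, Cebpd (3.09), a transcription factor, and the clock gene Per1 (2.20), and both were lower with either supplement. Fkbp5 and Tsc22d3, further glucocorticoid targets, were at -0.62 and -0.15 in warm versus cold, and Mt2A was at 0.72. The list median was 0.08, with 5 of the 9 genes above 0 and 4 below.

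Genes with the most similar profile were sought for each member with a range of at least 1, by the Euclidean distance between log2 profiles centred on their mean over the 4 arrays. For Angptl4 the closest of 9384 genes were Cxcl10 (0.70), Irf1 (0.77), Plk2 (0.93) and Ppp1r15a (0.93), which encode a chemokine, an interferon regulatory factor, a kinase and a phosphatase subunit. Apoc2 lay 0.91 from Angptl4, with 2 non-member genes closer, and Pdk4 lay 1.30 from it, with 18 closer. Around Apoc2 were Map3k8 (0.50), Irf1 (0.52), Hbegf (0.57) and Cebpd (0.64). Around Pdk4 were Cxcr4 (0.34), Klf2 (0.37), Zc3h12a (0.50) and Tnfaip3 (0.52). Cebpd is on the glucocorticoid-induced list, and no gene of the PPAR-alpha type or fat cell lists was among these. In warm versus cold 0 genes of the PPAR-alpha type list and 1 of the fat cell list had passed the limit. Their absence here therefore adds nothing further.

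Fabp4 and Car3 had other company. Closest to Fabp4 were Ccnd2 (0.20), Prom2 (0.23), Gabrp (0.25) and Cyp1a1 (0.27). Ccnd2, a cyclin, had 6.56 on the heparin, 7.45 on the PPS, 7.59 on the warm and 7.19 on the cold array. Closest to Car3 were Jchain (0.50), an antibody chain, Pxmp4 (0.53), a peroxisomal membrane protein, Aebp1 (0.64) and Vcan (0.70), a matrix proteoglycan. Jchain had 6.76 on the heparin, 7.51 on the PPS, 7.98 on the warm and 9.04 on the cold array. Fabp4 and Car3 lay 1.26 apart. Within that distance of Fabp4 lay 8729 of the 9384 genes, but within that distance of Car3 only 89. The range over the arrays was 1.28 for Fabp4 and 2.28 for Car3, and the counts do not settle whether the profiles were alike. All distances rest on the same 4 arrays, where many genes share a profile.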

How the data were processed

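Messenger RNA was measured on 4 Affymetrix rat arrays, 1 per group, each with RNA pooled from 3 kidneys. The values are log2 expression values, 1 for each probe set, which the authors deposited after GCRMA per the submitters' processing notes. The sources used here give no version for it, and the scale was inferred from the range, 2.11 to 16.4. GCRMA makes array distributions nearly equal, so a change in total messenger RNA is not seen. Of 31099 probe sets, 57 controls were left out. The platform annotation lists 21268, of which 20832 have 1 gene symbol and 436 several, which were not used. Symbols were updated through Entrez identifiers to RefSeq (GRCr8), which held 20764. Values under the 50th percentile (4.51) were raised to it.

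The members and lists were chosen with earlier results of these data known. Named genes are the 9 members, up to 4 genes per list and comparison past the size limit, the largest where none passed, relatives of the members, and the 4 nearest profiles. Genes named outside this rule were chosen after their values were seen. They are Ppargc1b, Acadm, Hadha, Fkbp5, Tsc22d3, Mt2A, Gpd1, Acsl1, Aqp7, Lyz2, the genes under the floor and neighbours on the chromosome. Alternatives were other floors, the mean of probe sets, scaling to poly-A or hybridisation controls, quantile normalization and other size limits. The steps were tested on simulated data. With 1 array per group, precision is limited by the number of arrays. Python 3.11.15 with pandas 2.3.3 was used.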

Additional observations from a re-analysis of the deposited data

How the results depend on the processing

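No paired analysis was possible because each group has 1 array. For the same reason no array could be left out. Counts of members past the size limit in the 6 comparisons did not change with a floor at the 40th percentile, with no floor or with quantile normalization. With a floor at the 60th percentile, 1 member was higher in heparin versus cold and 1 in PPS versus cold, and 0 were lower in heparin versus PPS. With the mean of all probe sets, 3 members were lower in heparin versus warm, 2 in PPS versus warm and 0 in heparin versus PPS, heparin versus cold and PPS versus cold, since second probe sets of Car3 and Pdk4 lie under the floor. Scaled to the poly-A controls, 0 members were higher in heparin versus cold and in PPS versus cold, and 3 were lower in warm versus cold, 2 in heparin versus PPS, 6 in heparin versus cold and 3 in PPS versus cold, with the median of all genes at -1.13, -0.19, -1.25 and -1.05 in these 4. Scaled to the hybridisation controls, 4 were lower in heparin versus warm, 0 in heparin versus PPS and 2 in PPS versus cold. A 1.5-fold limit gave 4 higher members in warm versus cold and 3 in heparin versus cold, and 6 lower in heparin versus warm, 4 in PPS versus warm, 2 in heparin versus PPS and 2 in heparin versus cold. A log2 limit of 1.5 gave 3 lower in heparin versus warm, 2 in PPS versus warm, 0 in heparin versus PPS and 0 in PPS versus cold. Counts not given for a setting were as in the report. None of the members' called differences changed sign under any of these settings. Counts over all genes ranged from 71 to 640 higher and from 36 to 6636 lower in warm versus cold over the settings. The values of Angptl4 and Apoc2 on the cold array, at or just above the floor, limit what their folds can show.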
